A study of Mus musculus with 6 samples.

Results

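The genes described here are 32 targets and regulators of the tumour suppressor p53, growth arrest genes and caspases, chosen by symbol from the 12911 genes of each deposited table. They comprise p53 itself (Trp53), its inhibitors Mdm2 and Mdm4, cell cycle inhibitors, the Gadd45 and sestrin families, polo-like kinases, DNA repair genes, death receptors and their effectors, and 3 caspase genes with Apaf1. Bcl2 family genes were left out apart from Pmaip1. All 32 were listed in every library and all 32 passed the filter on low counts, so none was lost before testing.

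The libraries came from sorted glomerular endothelial cells, which line the filtering capillaries of the kidney, of mice null for eNOS, the endothelial nitric oxide synthase. One group was treated with streptozotocin (STZ), which destroys insulin-secreting cells and is labelled here as a diabetes model, and the other was not. All mice of both groups carried the eNOS-null genotype, so the comparison holds no animal with working eNOS. There were 3 STZ and 3 control libraries, each from RNA of 4 mice pooled. The labels give neither age nor strain nor sex, nor the promoter that drives the EYFP by which the cells were sorted. Errors are therefore between pools, not single mice.

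Deposited counts summed to 10734376 to 12662371.5 in STZ libraries and to 4387339 to 8751732.5 in control libraries, so every STZ library was the deeper. The 12 endothelial markers summed to 23525 to 24866 CPM, read counts scaled to a common library size, in STZ pools and to 17000 to 18953 CPM in control pools. Of these markers 6 were called higher and 0 lower (50.0% called, against 9.78% of all tested genes), with a median log2 fold change of 0.36. Their part in the values below was not tested. Xist, the RNA of the inactive X chromosome in female cells, stood at 0.387, 0.865 and 0.809 CPM in STZ pools and at 690, 690 and 746 CPM in control pools. Ddx3y, on the Y chromosome, averaged 135 CPM in STZ pools and 3.07 CPM in control pools. Eif2s3y, Kdm5d and Uty, also on the Y chromosome, were called higher in STZ pools too. By these genes the STZ pools read as male and the control pools as largely female. Treatment and sex cannot be told apart in any value below. None of the 32 genes lies on the X or Y chromosome.

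As background, p53 is a transcription factor that is kept low by Mdm2, which marks it for degradation, and by Mdm4, which blocks its activity. Stress such as DNA damage frees it, and it then raises genes that halt the cell cycle, repair DNA, limit growth signalling or start apoptosis. Several of these genes also answer to other signals, for instance FoxO factors for sestrins, or immediate early signalling for Btg2, Gadd45b and the polo-like kinases. In endothelium the pathway is studied in senescence and in vessel loss.

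In STZ pools 8 of the 32 genes were higher and 3 were lower at an adjusted p of 0.05, and 21 did not pass. The genes that rose were the cell cycle inhibitor Cdkn1a, the antiproliferative gene Btg2, the death receptor gene Fas, Phlda3, Sesn1, Zmat3, Trp53inp1 and the DNA polymerase gene Polk. Those that fell were Mdm4, the kinase gene Plk2 and the DNA damage sensor gene Ddb2. Neither p53 itself nor its main inhibitor Mdm2 passed, and none of the 3 caspase genes among the 32 did.

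The test was edgeR's quasi-likelihood F test over 12786 genes with p-values adjusted across all of them. Of all tested genes 9.78% were called, 5.47% higher and 4.32% lower, against 34.4%, 25.0% and 9.38% of the 32. The 32 genes were chosen with earlier results of these data known. Their median level was 59.3 CPM, against 34.1 CPM for tested genes. The part of either in these shares was not tested. Over the 32 genes the median log2 fold change (STZ over control) was 0.15, and over all tested genes -0.01. The STZ libraries lay wholly above the control libraries in 14 of the 32 genes and wholly below in 5, that is in 59.4% together, against 29.1% of tested genes (15.4% above and 13.7% below). Of the 11 calls, the 6 of Cdkn1a, Btg2, Fas, Sesn1, Phlda3 and Polk held in all 15 alternative settings. The count of lower genes was 0 without STZ pool 1 or without control pool 1, and 1 without STZ pool 3. That of higher genes ran from 6 to 9 when 1 library was left out.

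**Figure D1:**
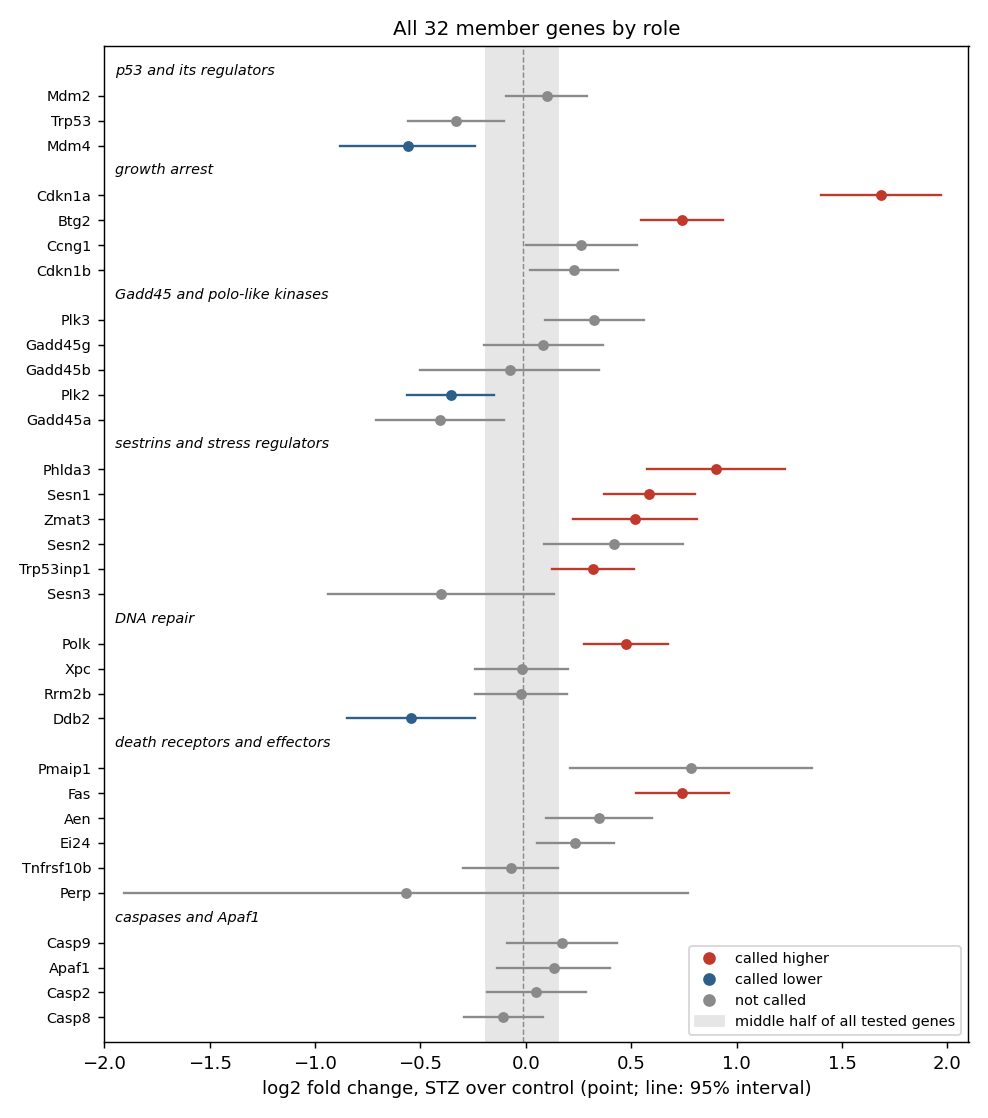
Log2 fold change of STZ over control for the 32 genes, grouped by role; points are edgeR estimates, lines their 95% intervals, red genes were called higher, blue lower and grey not called. The shaded band runs between the lower and upper quartiles of all tested genes (-0.19 to 0.15), the dashed line is their median, and Cdkn1a at 1.68 stands furthest to the right.

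Cdkn1a encodes p21, the inhibitor of cyclin-dependent kinases through which p53 halts the cycle (NM_001111099; mm10 chromosome 17, 29090986 to 29100722, plus strand). Its level was 355, 327 and 350 CPM in STZ pools 1, 2 and 3, against 102, 88.0 and 133 CPM in control pools 1, 2 and 3. Every STZ pool was more than double every control pool. The difference was 3.21-fold, a log2 fold change of 1.68 ± 0.13 (SE, 3 against 3 pools; adjusted p = 8.57e-06, edgeR). It ran from 1.56 to 1.86 on the log2 scale when 1 library was left out.

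Promoter windows of these genes were searched for binding motifs of p53 and of CREB near a start. Half-sites of p53 were found in both called and uncalled genes, and sequences are printed for called genes only. RefSeq windows on GRCm38.p6, 250 bases before to 50 bases after a transcription start, were used for 24 of the 32 genes (29 windows). Genes left out of the search were Ddb2, Perp, Pmaip1, Rrm2b, Tnfrsf10b, Trp53inp1, Xpc and Zmat3. For Pmaip1 this does not mean that no window exists, and its promoter was not tested. The 250 bases before the start follow, 5′ to 3′ on the gene's strand. Capitals mark exact p53 half-sites in Cdkn1a (chr17:29090729-29090978, plus strand) and at an internal start of Sesn1 (chr10:41887189-41887438, plus strand). In Btg2 (chr1:134079156-134079405, minus strand) and Plk2 (chr13:110394794-110395043, plus strand) they mark the cyclic AMP response element TGACGTCA.
Cdkn1a: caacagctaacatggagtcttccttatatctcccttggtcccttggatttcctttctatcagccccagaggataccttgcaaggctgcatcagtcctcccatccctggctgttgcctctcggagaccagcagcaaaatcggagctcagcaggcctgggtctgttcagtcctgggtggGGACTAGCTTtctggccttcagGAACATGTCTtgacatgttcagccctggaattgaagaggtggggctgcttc
Sesn1: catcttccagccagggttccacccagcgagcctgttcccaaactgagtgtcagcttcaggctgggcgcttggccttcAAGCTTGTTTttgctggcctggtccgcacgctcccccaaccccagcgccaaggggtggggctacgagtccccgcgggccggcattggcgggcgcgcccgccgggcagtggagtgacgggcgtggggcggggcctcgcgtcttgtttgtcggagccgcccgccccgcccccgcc
Btg2: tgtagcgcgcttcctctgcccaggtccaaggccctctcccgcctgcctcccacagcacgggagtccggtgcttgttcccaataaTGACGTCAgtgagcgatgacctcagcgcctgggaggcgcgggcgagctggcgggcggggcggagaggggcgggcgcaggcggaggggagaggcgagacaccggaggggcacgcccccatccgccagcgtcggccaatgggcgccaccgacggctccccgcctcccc
Plk2: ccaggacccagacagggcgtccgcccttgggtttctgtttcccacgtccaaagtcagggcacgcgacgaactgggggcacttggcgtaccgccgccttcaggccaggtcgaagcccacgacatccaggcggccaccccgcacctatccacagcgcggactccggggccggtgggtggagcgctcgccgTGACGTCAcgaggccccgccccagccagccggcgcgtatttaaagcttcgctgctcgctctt

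The p53 half-site and the response element read the same on both strands, and both strands were searched. An exact p53 half-site was present in 9 of the 24 genes, namely Aen, Ccng1, Cdkn1a, Ei24, Gadd45a, Mdm2, Polk, Sesn1 and Trp53, that is in 10 of the 29 windows of the 24 genes, against 8.36% of all 32851 RefSeq windows. The Polk site lies before an internal start (window chr13:96519138-96519437), as that of Sesn1 does. The Aen windows overlap and share their site, which is counted in both. Of these 9 genes 3 were called higher and 6 were not called. Cdkn1a alone held a pair of them within 13 bases of each other, GGACTAGCTT from -73 to -64 and GAACATGTCT from -51 to -42, counted from the start. Such a pair occurs in 0.0731% of all windows. TGACGTCA was found in Btg2, which rose, and Plk2, which fell, and in 1.79% of windows. The TATAAA motif, searched on both strands, was found in Gadd45b, Gadd45g and Trp53 and in 13.6% of windows. A match describes the sequence and not binding in these cells.

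Among p53 and its regulators, Mdm4 fell and the other 2 did not pass. Mdm4 (NM_008575; chromosome 1, 132989845 to 133025348, minus strand), whose protein covers the activation domain of p53, was at 46.7, 52.6 and 57.4 CPM in STZ pools and at 74.8, 62.0 and 95.7 CPM in control pools. The groups did not overlap, although STZ pool 3 and control pool 2 lay close (log2 fold change -0.56 ± 0.14, adjusted p = 0.0336, edgeR). The Mdm4 call was lost without STZ pool 1 (adjusted p = 0.136), STZ pool 2 (0.0728), control pool 1 (0.105) or control pool 3 (0.0546), and with libraries thinned to equal depth (0.0615).

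Trp53 itself (NM_001127233; chromosome 11, 69580359 to 69591873, plus strand) read 45.7, 55.9 and 45.6 CPM in STZ pools, against 60.3, 61.5 and 63.8 CPM in control pools. All STZ values lay below all control values, with a log2 fold change of -0.33 ± 0.11 and an adjusted p of 0.0654 that missed the threshold in edgeR. Without STZ pool 2, the nearest to the controls, it passed (-0.44, adjusted p = 0.0218). Mdm2, the ubiquitin ligase of p53 and itself a p53 target, had 85.3, 88.9 and 91.6 CPM in STZ pools and 80.4, 79.0 and 89.3 CPM in control pools. These values overlap, and the 95% interval of the log2 fold change was -0.09 to 0.29.

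Of the 4 growth arrest genes, Cdkn1a and Btg2 rose (50.0%, against 5.47% of all tested genes), and Cdkn1b and Ccng1 did not pass. Btg2, an antiproliferative cofactor of mRNA deadenylation (NM_007570; chromosome 1, 134074865 to 134079155, minus strand), was at 216, 205 and 205 CPM in STZ pools and at 116, 135 and 124 CPM in control pools. The STZ values hardly varied and stood clear of the controls (1.67-fold, log2 fold change 0.74 ± 0.09, adjusted p = 0.000185, edgeR). Cdkn1b, which encodes the related inhibitor p27, averaged 111 ± 8.47 CPM in STZ pools and 94.7 ± 8.30 CPM in control pools (SD, n = 3 each). Its groups did not overlap, yet the log2 fold change of 0.23 ± 0.10 did not pass (adjusted p = 0.169, edgeR). Ccng1, cyclin G1, a classical p53 target, read 85.9, 67.2 and 82.5 CPM in STZ pools and 61.6, 76.1 and 58.3 CPM in control pools. Here STZ pool 2 fell among the controls, and the interval ran from -0.00 to 0.53.

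Per kilobase of listed transcript, Cdkn1a and Plk2 changed places. Cdkn1a had 183, 169 and 181 CPM per kilobase in STZ pools and 52.7, 45.5 and 68.6 in control pools. Plk2 had 135, 155 and 138 CPM per kilobase in STZ pools and 192, 172 and 183 in control pools. In every STZ pool Cdkn1a was thus the higher of the pair, and in every control pool Plk2 was. That order rests on listed lengths of 1936 bases for Cdkn1a and 2801 bases for Plk2. In CPM, not divided by length, Plk2 read above Cdkn1a in every STZ and control pool. Per kilobase only Fas stood above both genes, at 431 ± 9.58 in STZ pools and 257 ± 34.2 in control pools (SD, n = 3 each). The Fas value rests on a listed transcript of only 555 bases. At the low end were Perp, Sesn3 and Zmat3.

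**Figure D2:**
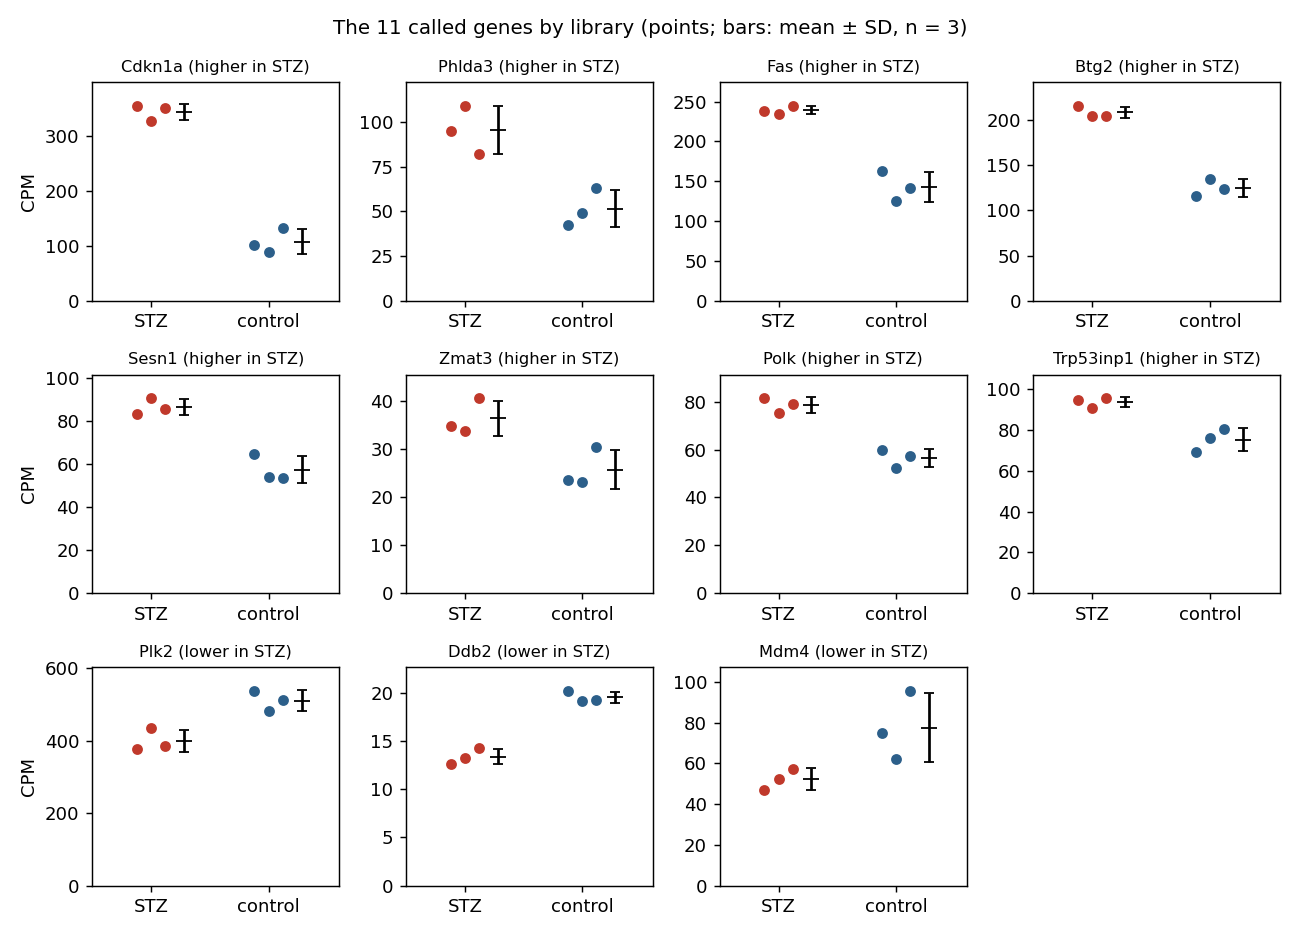
Level of the 11 called genes in CPM (y axis, from 0) in each STZ (red) and control (blue) library; bars give mean ± SD over 3 pools. In all 11 the groups do not overlap; in Mdm4 the highest STZ pool reads 57.4 CPM and the lowest control pool 62.0 CPM.

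The Gadd45 genes, small stress sensors that bind cyclin-dependent kinase and MAP kinase kinase kinase proteins, did not pass in any of the 3 cases. Gadd45a was at 37.5, 36.3 and 36.7 CPM in STZ pools and at 49.7, 58.8 and 37.1 CPM in control pools. Control pool 3 overlapped the STZ pools, and without that pool Gadd45a passed (log2 fold change -0.55, adjusted p = 0.00721, edgeR), against -0.41 ± 0.14 and 0.0936 with all 6 libraries. Gadd45b read 48.6, 66.2 and 38.0 CPM in STZ pools and 49.0, 54.0 and 58.8 CPM in control pools. Its STZ pools were the spread ones, lying on both sides of the controls. Gadd45g averaged 59.6 ± 6.25 CPM in STZ pools and 56.7 ± 9.96 CPM in control pools (SD, n = 3 each), with a 95% interval of -0.20 to 0.37.

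The polo-like kinase genes, both induced by stress and growth signals, stood on opposite sides. Plk2 (NM_152804; chromosome 13, 110395044 to 110400843, plus strand) fell, at 378, 434 and 386 CPM in STZ pools against 538, 481 and 513 CPM in control pools (log2 fold change -0.36 ± 0.10, adjusted p = 0.0324, edgeR). That call was lost without STZ pool 1 (adjusted p = 0.167), STZ pool 3 (0.144) or control pool 1 (0.140). Plk3 read 88.9, 121 and 105 CPM in STZ pools and 85.7, 80.8 and 84.8 CPM in control pools. STZ pool 1 lay just above the controls, and the log2 fold change of 0.33 ± 0.11 had an adjusted p of 0.0818. Without STZ pool 1 Plk3 passed (0.43, adjusted p = 0.0357, edgeR), as it did in thinned libraries (0.39, adjusted p = 0.0389).

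Within the STZ group, pool 2 held the highest value of Gadd45b, Gadd45g, Plk2 and Plk3, and the lowest of Ccng1. Over the 32 genes it held the highest STZ value in 12, as many as STZ pool 1, and 35.3% of all tested genes were highest there. Btg2 was lowest in STZ pool 2, at 205 CPM against 216 and 205 CPM in STZ pools 1 and 3. STZ pool 2 had the highest sum of 17 immediate early and dissociation genes, at 3803 CPM against 3014 and 2935 CPM in STZ pools 1 and 3. Klf4 and Dusp1, the 2 most abundant of the 17, averaged 588 and 559 CPM in STZ pools and 435 and 387 CPM in control pools. Jun, a subunit of the AP-1 factor and less abundant than these, was at 322, 452 and 289 CPM in STZ pools and at 199, 234 and 237 CPM in control pools. The 17 genes summed to 2012, 2533 and 2742 CPM in control pools 1, 2 and 3, below every STZ pool. Called higher were 6 of them (35.3%, against 5.47% of all tested genes). Btg2, Gadd45b, Plk2 and Plk3 are themselves known as immediate early genes, and the part of this list in their values was not tested.

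Sestrins and stress regulators held 4 of the 8 higher genes (66.7% of this group, against 5.47% of all tested genes), with Sesn2 and Sesn3 not passing. Sesn1, a stress-induced inhibitor of mTORC1 signalling (NM_001162908; chromosome 10, 41810574 to 41908436, plus strand), was at 83.1, 90.5 and 85.5 CPM in STZ pools and at 64.6, 53.8 and 53.5 CPM in control pools (log2 fold change 0.59 ± 0.10, adjusted p = 0.00218, edgeR). Control pool 1 was the nearest to the STZ pools and still well below them. Sesn2, of the same family, read 23.1, 20.3 and 21.4 CPM in STZ pools and 14.3, 15.3 and 19.7 CPM in control pools. The gap was narrow at control pool 3, and Sesn2 passed without that pool only (0.56, adjusted p = 0.0325, edgeR), against 0.42 ± 0.15 and 0.109 with all libraries. Sesn3 was scarce, with deposited counts of 36, 38 and 50 in STZ libraries and 38, 28 and 27 in control libraries. Scaled to depth it lay lower in all STZ pools, but its interval of -0.94 to 0.13 is wide.

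Phlda3, a small protein that competes with Akt for membrane lipids (NM_013750; chromosome 1, 135766085 to 135769134, plus strand), rose 1.87-fold, next to Cdkn1a among the called genes. It was at 94.8, 109 and 82.2 CPM in STZ pools and at 42.6, 49.1 and 63.0 CPM in control pools. Both groups were spread, without overlap (log2 fold change 0.90 ± 0.15, adjusted p = 0.00300, edgeR). Zmat3, an RNA-binding zinc finger protein (NM_009517; chromosome 3, 32334794 to 32365665, minus strand), averaged 36.5 ± 3.63 CPM in STZ pools and 25.7 ± 4.11 CPM in control pools (SD, n = 3 each; adjusted p = 0.0304, edgeR). Zmat3 lost its call without STZ pool 1 (adjusted p = 0.0730), STZ pool 3 (0.128), control pool 1 (0.136) or control pool 2 (0.0915), and in thinned libraries (0.0920). Trp53inp1, a p53 cofactor with a part in autophagy (NM_001199105; chromosome 4, 11156441 to 11174377, plus strand), averaged 93.6 ± 2.47 CPM in STZ pools and 75.3 ± 5.64 CPM in control pools (SD, n = 3 each; adjusted p = 0.0405, edgeR). This call was the least stable: it held without control pool 3, and was lost without any other single library (adjusted p of 0.0595 to 0.158), in DESeq2 (0.0605), with upper-quartile scaling (0.0505) and in thinned libraries (0.0577).

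DNA repair genes went both ways. Polk, a polymerase that copies past damaged bases (NM_012048; chromosome 13, 96480689 to 96542485, minus strand), rose to 81.5, 75.1 and 79.2 CPM in STZ pools, against 59.8, 52.4 and 57.4 CPM in control pools (log2 fold change 0.47 ± 0.09, adjusted p = 0.00542, edgeR). Both groups were tight and far apart. Ddb2, which finds ultraviolet damage for excision repair (NM_028119; chromosome 2, 91211582 to 91237066, minus strand), fell to 12.7, 13.2 and 14.2 CPM in STZ pools, against 20.2, 19.1 and 19.2 CPM in control pools (-0.55 ± 0.14, adjusted p = 0.0272, edgeR). The values are as tight as those of Polk, but counts were low (87 to 184), and leaving out any library except control pool 3 raised the adjusted p above 0.05 (0.0501 to 0.132). Xpc, its partner in damage recognition, and Rrm2b, a p53-induced ribonucleotide reductase subunit, showed log2 fold changes of -0.02 ± 0.10 each. Their 95% intervals, -0.24 to 0.20 for Xpc and -0.24 to 0.19 for Rrm2b, leave out any difference as large as that of Polk.

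Among death receptors and effectors, 1 of 6 genes was called (16.7%, against 9.78% of all tested genes), too few genes to set this group apart. Fas, the receptor of Fas ligand (NM_001146708; chromosome 19, 34290659 to 34309350, plus strand), was at 239, 234 and 245 CPM in STZ pools and at 163, 125 and 141 CPM in control pools. The STZ pools were nearly equal and all above the controls (1.67-fold, log2 fold change 0.74 ± 0.10, adjusted p = 0.000520, edgeR). Tnfrsf10b, the mouse receptor of the ligand TRAIL, averaged 43.7 ± 1.08 CPM in STZ pools and 45.8 ± 3.94 CPM in control pools (SD, n = 3 each). Its interval of -0.30 to 0.15 leaves out a difference as large as that of Fas.

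Pmaip1, or Noxa, a BH3-only protein that opposes Mcl1, read 18.6, 15.7 and 17.5 CPM in STZ pools and 8.90, 14.9 and 5.74 CPM in control pools. The STZ pools were alike and the control pools were not, control pool 2 coming close to them. The log2 fold change of 0.78 ± 0.26 did not pass in edgeR (adjusted p = 0.0904). It passed when control pool 2 was left out (1.18, with 0.00598 as adjusted p in edgeR) and in DESeq2 with all libraries (0.79, adjusted p = 0.0274). Aen, an exonuclease of apoptotic DNA cleavage, averaged 33.0 ± 1.82 CPM in STZ pools and 25.9 ± 1.56 CPM in control pools, and Ei24, a membrane protein of the endoplasmic reticulum, 115 ± 3.08 CPM in STZ pools and 97.5 ± 5.38 CPM in control pools (SD, n = 3 each). Neither overlapped between groups and neither passed (adjusted p of 0.0830 for Aen and 0.105 for Ei24, edgeR). Perp, a desmosomal membrane protein of epithelia, was barely detected, with 15, 2 and 13 counts in STZ libraries and 10, 13 and 3 in control libraries, too few to show a difference.

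The initiator caspase genes and Apaf1, the scaffold of the apoptosome that activates caspase 9, all overlapped between groups. Casp8, which acts under the death receptors, was at 135, 126 and 124 CPM in STZ pools and at 144, 129 and 142 CPM in control pools. Casp9 averaged 35.7 ± 2.37 CPM in STZ pools and 31.5 ± 3.46 CPM in control pools, Casp2 42.6 ± 1.93 CPM in STZ pools and 41.0 ± 3.90 CPM in control pools, and Apaf1 47.8 ± 5.45 CPM in STZ pools and 43.6 ± 5.68 CPM in control pools (SD, n = 3 each). Called were 0 of these 4 in edgeR, against 9.78% of all tested genes. An unadjusted p under 0.05 was seen in 0 of them, against 3091 of the 12786 tested genes. DESeq2, limma-voom and the other alternatives also called 0 of them. At these shares 4 genes are too few for a count of 0 to set them apart. Their intervals lay between -0.29 and 0.43 on the log2 scale, below the change of Cdkn1a, Fas and Btg2.

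**Figure D3:**
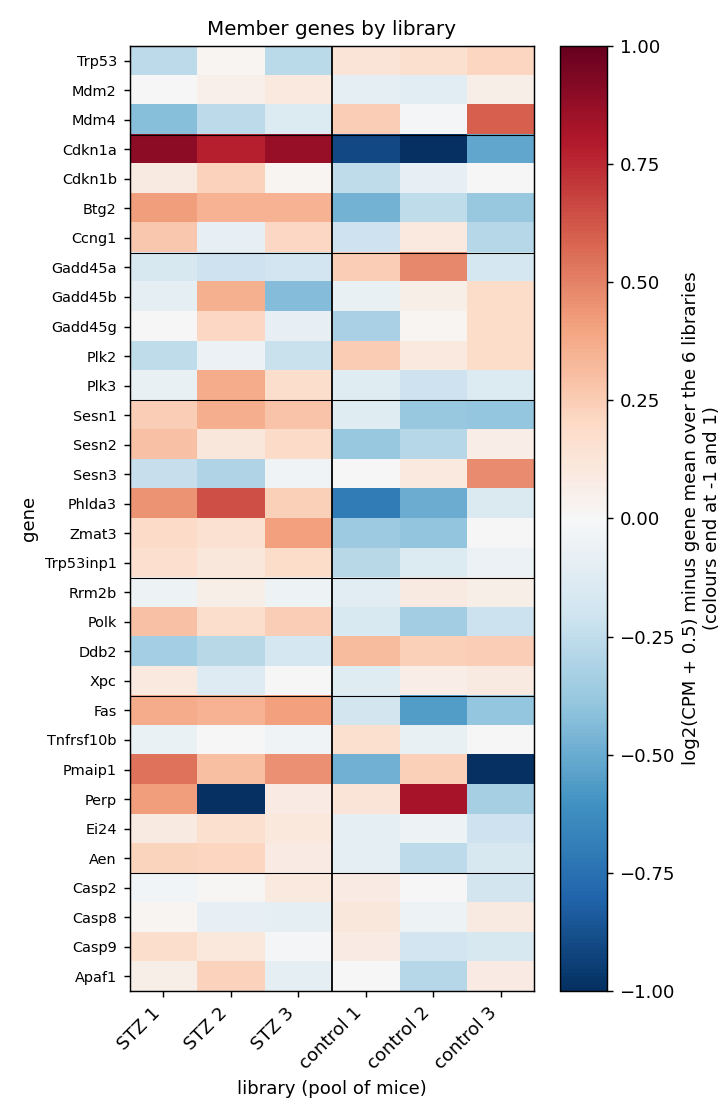
Heat map of the 32 genes (rows, by role) in the 6 libraries (columns, STZ left of control), coloured by log2(CPM + 0.5) minus the gene's mean, with colours ending at -1 and 1. Cdkn1a, Btg2, Phlda3, Sesn1 and Fas are red in all 3 STZ columns, whereas the caspase rows are pale throughout and Pmaip1 differs mainly within the control columns.

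The 32 genes summed to 2804, 2889 and 2784 CPM in STZ pools and to 2368, 2289 and 2438 CPM in control pools. Without Cdkn1a the sums were 2449, 2562 and 2434 CPM in STZ pools and 2266, 2201 and 2305 CPM in control pools. Cdkn1a thus made up much of the gap, and the remaining sums still did not overlap. The median coefficient of variation between replicates was 6.56% in STZ pools and 9.28% in control pools. Over all tested genes it was 8.64% in STZ pools and 11.5% in control pools, and over the 9879 genes at 10 to 520 CPM it was 7.53% in STZ pools and 10.1% in control pools. The genes were also more abundant than usual, with a median of 59.3 CPM over the 6 libraries against 34.1 CPM for tested genes.

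Other genes of the pathway, read from the same fit, gave fewer calls. Of 31 further p53 pathway genes 5 were called higher and 1 lower (16.1% and 3.23%, against 5.47% and 4.32% of all tested genes). Their median log2 fold change was 0.10. Eda2r, a member of the TNF receptor family that p53 induces, was at 11.3, 11.2 and 12.7 CPM in STZ pools and at 4.73, 3.53 and 4.86 CPM in control pools (1.43 ± 0.20, adjusted p = 0.000679, edgeR). Eda2r lies on the X chromosome, where the Xist values above also differ between the groups. Bax, the pore-forming effector of apoptosis, read 187, 176 and 183 CPM in STZ pools and 130, 134 and 132 CPM in control pools (0.47 ± 0.08, adjusted p = 0.00276, edgeR). Ppp1r15a, or Gadd34, a phosphatase subunit of the stress response, rose by 0.57 ± 0.09 on the log2 scale.

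The other 2 higher genes, named after their values were seen, were Trp53inp2 (0.33 ± 0.09) and Gtse1 (0.99 ± 0.27), and Trp53i11 fell (-0.38 ± 0.10). The count of higher genes in this list was 3 without STZ pool 1, STZ pool 3 or control pool 1, and that of lower genes 0 without the same pools. The upstream kinase genes Atm, Atr and Chek2, likewise picked afterwards, did not pass, with log2 fold changes of -0.11, -0.16 and 0.13.

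Of 11 other cell cycle inhibitor genes, edgeR called 0, against 9.78% of all tested genes, a share too small to set so short a list apart. One, Btg1, had an unadjusted p under 0.05, and DESeq2 and limma-voom also called 0. Btg1, a relative of Btg2, was at 207, 211 and 202 CPM in STZ pools and at 206, 262 and 275 CPM in control pools. Cdkn1c, which encodes p57 and is strong in podocytes, read 121, 99.4 and 110 CPM in STZ pools and 135, 168 and 83.3 CPM in control pools. The median log2 fold change of the list was -0.06.

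Among 23 other caspase and death machinery genes 3 were called lower and 0 higher in edgeR. Of all tested genes 4.32% were called lower and 5.47% higher. At the latter share 23 genes are too few for a count of 0 higher to set the list apart. An unadjusted p under 0.05 was seen in 5 of the 23, against 3091 of the 12786 tested genes. These 5 were the 3 called lower and 2 with a positive change. DESeq2 called 2 lower and limma-voom 3, and both called 0 higher. Casp4, the inflammatory caspase known as caspase 11 in mice, fell to 27.2, 25.9 and 28.8 CPM in STZ pools, against 44.7, 37.7 and 37.8 CPM in control pools (log2 fold change -0.56 ± 0.12, adjusted p = 0.00864, edgeR). Ripk3, the kinase of necroptosis, fell to 31.4, 32.2 and 30.9 CPM in STZ pools, against 43.6, 41.8 and 37.8 CPM in control pools (-0.39 ± 0.11, adjusted p = 0.0398, edgeR). In both genes every STZ pool lay below every control pool. The count of lower genes was 1 without STZ pool 1 or STZ pool 3 and 0 without control pool 1. The median of the list was 0.02.

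**Figure D4:**
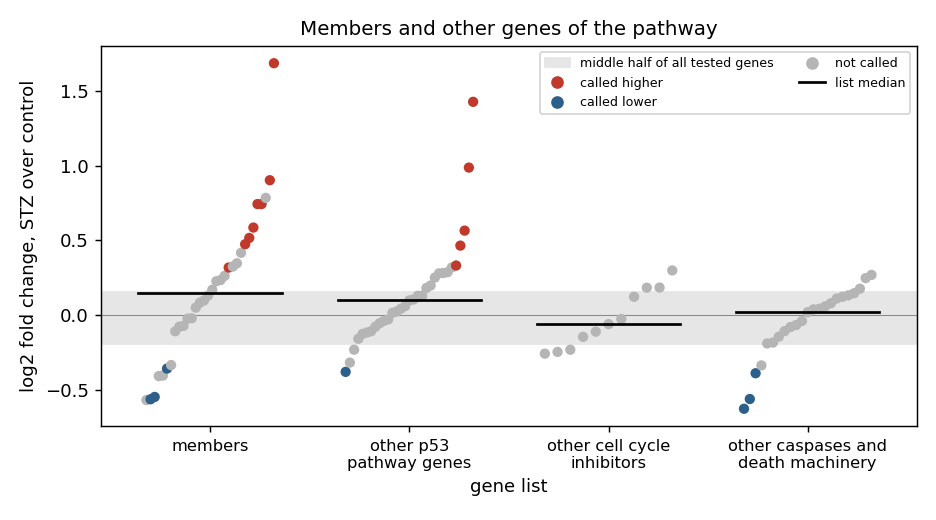
Log2 fold change of STZ over control (y axis) for each gene of the 32 and of 3 other lists of the pathway (x axis), sorted within a list; red points were called higher, blue lower, black lines are medians and the band is the middle of all tested genes. Called higher genes appear in the first 2 lists, with Cdkn1a (1.68) and Eda2r (1.43) at the top, and the calls among other caspase and death genes are all lower.

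Markers of other cell types were read in the same libraries. The 12 mesangial and mural markers summed to 770, 493 and 905 CPM in STZ pools and to 1377, 1369 and 1272 CPM in control pools. In 11 of the 12 (91.7%, against 13.7% of all tested genes) every STZ pool lay below every control pool. Called lower were 4 (33.3%, against 4.32% of all tested genes). Itga8 and Pdgfrb, the most abundant over the 6 libraries together, averaged 129 and 90.0 CPM in STZ pools and 232 and 231 CPM in control pools. Neither was among the 4 called (adjusted p of 0.192 for Itga8 and 0.0538 for Pdgfrb, edgeR). The 10 podocyte markers summed to 4810 to 5959 CPM in STZ pools and to 4472 to 7258 CPM in control pools, with 0 called in edgeR and 2 lower at an unadjusted p under 0.05. They include Podxl, which endothelium also expresses. Tubular markers (7 tested) summed to 41.1 to 228 CPM in STZ pools and 145 to 468 CPM in control pools, and leukocyte markers (7 tested) to 117 to 152 CPM in STZ pools and 150 to 196 CPM in control pools. The part of these cells in the values of the 32 genes was not tested. In pooled RNA, fewer cells of a type and less RNA per cell cannot be told apart.

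**Figure D5:**
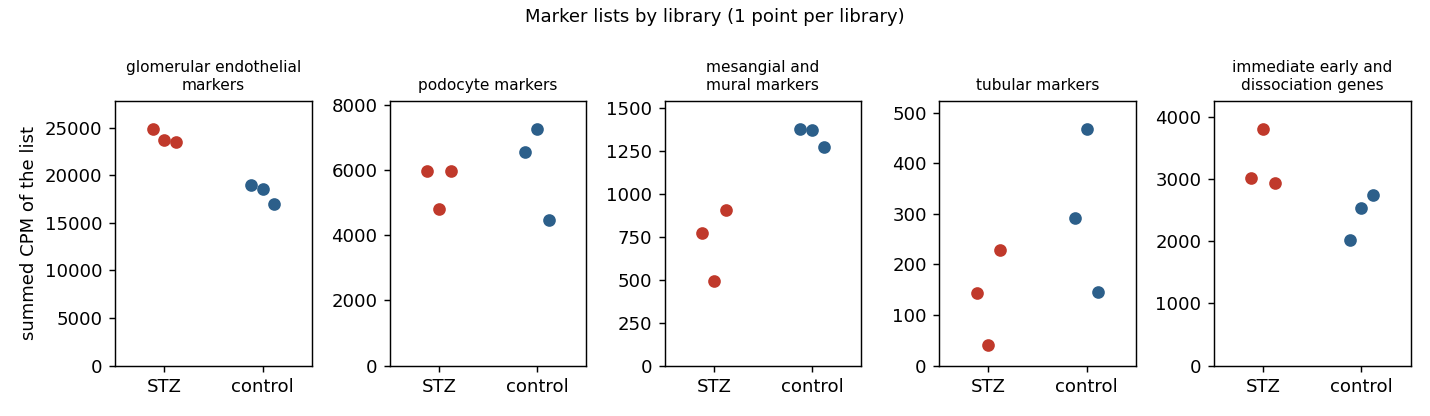
Summed CPM of 5 marker lists (y axes, from 0) in each STZ (red) and control (blue) library, 1 point per library. Endothelial and immediate early sums lie higher in STZ pools and mesangial and mural sums lower, while podocyte and tubular sums overlap.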

How the data were processed

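RNA of glomerular endothelial cells, sorted by EYFP, was sequenced from eNOS-null mice with STZ (3 libraries) and without treatment (3 libraries), with RNA of 4 mice per library and integrity values above 7.5, per the labels' protocols. The deposited files hold 1 estimated count per gene, in steps of 0.5, with 0 to 24 blank cells per library, which were read as 0. Per the submitters' processing notes, the build was mm10 and limma was used. Aligner, counter and strand setting: not given in the sources used here. Genes with several transcripts, 11 of the 32, carry 1 value whose making is not stated. Listed starts plus 1 equalled a RefSeq start in 3815 of 6480 plus-strand genes, against 18 as listed, so 1 was added.

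Rounded counts went into edgeR 4.0.16 under R 4.3.3 (filterByExpr, TMM, robust quasi-likelihood F test, two-sided, Benjamini-Hochberg, threshold 0.05). CPM use TMM-scaled totals. SE is the log2 fold change over the square root of F. Alternatives used DESeq2 1.42.0, limma 3.58.1, other scalings and filters, equal depth, a replicate block and leaving out each library. Replicates differed beyond counting noise (chi-square per degree of freedom of 3.94 to 11.8). The fit was also run on simulated counts with the same dispersion for all genes, unlike these data, so that run does not test the calls made here. The 32 genes and the lists were chosen with earlier results of these data known. All 32 are named, with up to 3 called genes per direction of each other pathway list (without calls, the 2 most abundant) and the 2 most abundant genes of marker lists, only part of which are printed. Jun was named outside this rule. A gene of the other caspase and death list is not reported here. Labels do not say that libraries came from separate cohorts, so p-values measure the spread between pools.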

Additional observations from a re-analysis of the deposited data

How the results depend on the processing

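Over 479 recomputed log2 fold changes of the 32 genes, 443 kept direction and side of the threshold (or, below it, changed sign without a call), 29 lost a call, 7 gained one and 0 reversed a call. No value of the 11 called genes changed sign, and 11 values of uncalled genes did. At a threshold of 0.10, 5 of the 32 genes were lower, as were 866 of all tested genes and 2 of the other p53 pathway genes. Replicate numbers did not pair the pools (correlations of deviations 0.119, -0.128 and -0.163), and with a replicate block 1 of the 32 genes was lower, the calls of Plk2 (adjusted p = 0.0825), Ddb2 (0.0534) and Trp53inp1 (0.0778) being lost in edgeR, and 3 other p53 pathway genes were higher and 0 lower. Thinned to equal depth, 3 other p53 pathway genes were higher. Leaving out 1 library gave 426 to 695 higher and 236 to 596 lower genes of all tested, 6 to 9 higher and 0 to 3 lower among the 32, and a median log2 fold change of 0.12 to 0.22. In the other p53 list it gave 3 to 6 higher and 0 to 1 lower, among other cell cycle inhibitors 0 to 1 lower, and among other caspase and death genes 0 to 2 lower. The causes of these moves were not tested. Counts were low for Perp (2 to 15 per library) and Sesn3 (27 to 50).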

Other observations

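A group of called genes sits close together on chromosome 1, and its members moved in different directions. Starts of Mdm4, which fell, and Btg2, which rose, lie 1.09 Mb apart, and those of Btg2 and Phlda3, which also rose, 1.69 Mb. On chromosome 13 the higher Polk and the lower Plk2 lie 13.9 Mb apart. The 11 called genes otherwise share neither family nor level: Plk2 averaged 399 CPM and Ddb2 13.4 CPM in STZ pools, against 511 and 19.5 CPM in control pools.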
